A study of Mus musculus with 4 samples.

Results

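The genes described here are 38 cytokine, chemokine and NF-kB genes, chosen by symbol, in mouse liver RNA measured as FPKM (sequenced fragments scaled by transcript length and by the mapped fragments of the library). The livers came from male C57BL/6 mice, an inbred strain, kept for 12 weeks on a diet of 60% fat. One group, called vehicle in the labels, had this diet alone. The other had UAB126, a compound known here only by its code, in the diet at 1.2 g per kg. Both groups therefore share the high fat diet, and no library from a low fat diet was analysed here. Each group had 2 libraries, and the labels do not tell whether these were separate animals, so every p-value below measures the spread between these 4 libraries, which may be technical. Of the 38 genes, 35 had a row of their own among 22849 symbols, 26 reached a mean over the 4 libraries of at least 1 FPKM and were tested among 10786 symbols in all, 8 were above 0 but under that mean, and Il6 was listed at 0 in every library. The other 3 genes stood only in rows that name several genes: Ccl6 with Ccl9, and Il6ra with Ubap2l.

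Inflammatory cytokines such as TNF and IL-1 bind receptors whose adaptors, among them MyD88, lead to phosphorylation and loss of the inhibitor IkB-alpha (gene Nfkbia). NF-kB dimers then enter the nucleus and activate genes for chemokines, adhesion molecules and their own inhibitors, which close the loop. IL-6 acts through its receptor and gp130 (gene Il6st) on the transcription factor STAT3, and in hepatocytes this drives the acute phase proteins. In liver the resident macrophages, called Kupffer cells, are a main source of TNF and IL-1, while hepatocytes, stellate cells and sinusoidal endothelium respond to them and make chemokines of their own.

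Promoter sequences were searched for the motifs of both factors. RefSeq start sites of build GRCm38.p6 were matched by symbol for 27 of the 38 genes. The 11 with no entry include Ccl2, Ccl5 and Vcam1. The 250 bases before each start were searched on both strands for the 10-letter kB consensus, the binding site of NF-kB. At least 1 window held a match in 10 of these 27 genes (37.0%), against 1204 of 27025 genes in the whole table (4.46%). The 9-letter motif TTCNNNGAA, a STAT site that reads alike on both strands, was in 4 of the 27 genes (14.8%) against 8.13% of all genes. The genes were chosen as members of these pathways, so a higher share of matches among them is no finding about these libraries. A match is a description of the letters and does not show that a factor was bound. The sequences below are the parts of 4 windows that lie before the annotated gene, 5′ to 3′ on the gene's strand, with the kB match in capitals. Cxcl1 and Cxcl2 are shown because they are neighbouring chemokine genes that were both lower in the UAB126 libraries, Nfkbia because it is the inhibitor in the loop, and Il6 because it was listed at 0. Of the genes with a kB match, Il1r1, Nfkb2 and Tnfaip3 were higher without overlap, Nfkbia, Tlr2 and Nlrp3 overlapped, and Ccl9 had only a joint row. Whether a match went with a direction was not tested.
Cxcl1, chr5:90890995-90891240, plus strand: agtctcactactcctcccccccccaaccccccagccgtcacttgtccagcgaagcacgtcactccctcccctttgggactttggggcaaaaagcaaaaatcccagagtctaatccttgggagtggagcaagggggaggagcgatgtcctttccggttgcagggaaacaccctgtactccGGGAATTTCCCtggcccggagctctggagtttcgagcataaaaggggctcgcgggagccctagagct
Cxcl2, chr5:90903649-90903870, plus strand: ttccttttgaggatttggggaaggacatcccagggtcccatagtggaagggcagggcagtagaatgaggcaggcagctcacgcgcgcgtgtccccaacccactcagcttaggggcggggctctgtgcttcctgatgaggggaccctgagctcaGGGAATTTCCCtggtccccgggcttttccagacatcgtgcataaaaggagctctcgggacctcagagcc
Nfkbia, chr12:55492648-55492897, minus strand: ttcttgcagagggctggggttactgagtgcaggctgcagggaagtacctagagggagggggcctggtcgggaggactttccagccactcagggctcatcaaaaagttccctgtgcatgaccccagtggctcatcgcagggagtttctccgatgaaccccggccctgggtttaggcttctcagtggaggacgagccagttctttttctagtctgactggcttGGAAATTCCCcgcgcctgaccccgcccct
Il6, chr5:30012864-30013113, plus strand: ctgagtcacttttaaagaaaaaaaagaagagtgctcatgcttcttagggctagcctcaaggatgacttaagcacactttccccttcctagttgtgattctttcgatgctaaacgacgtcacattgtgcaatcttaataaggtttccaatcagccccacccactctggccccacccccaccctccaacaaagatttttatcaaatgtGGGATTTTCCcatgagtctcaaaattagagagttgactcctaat
In Cxcl1 and Cxcl2 the capitals are the same run of letters, which holds 2 overlapping matches, one on each strand.

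Before the genes, the libraries. Read from the steps of low values, the vehicle libraries had 0.691 (replicate 1) and 0.404 (replicate 2) times the depth of UAB126 replicate 1, and UAB126 replicate 2 had 0.703 times that depth. These depths put 941 of 2980 low rows on small whole numbers of fragments; the next best set put 850 there and had vehicle replicate 2 at 0.808, so depths and fragment numbers are estimates. Of 10 hepatocyte markers, 9 were at 121.3 FPKM or more in every library, while Alb was listed at 0 in all but vehicle replicate 2, so a listed 0 in this table need not mean a low level. Several marker lists of other liver cells differed between the vehicle libraries. The 10 Kupffer cell and macrophage markers with a row of their own (of 12 listed) summed to 130.7 and 389.9 FPKM in vehicle replicates 1 and 2, and to 281.7 and 358.9 FPKM in UAB126 replicates 1 and 2, and none was at 0. Vehicle replicate 1 was the lowest library in all 10 of them and in all 7 measured markers of sinusoidal endothelium, which summed to 89.3 FPKM there and to between 141.2 and 161.9 FPKM in the other libraries. The 7 measured neutrophil markers were mostly near 0 in every library. Their sum was 31.8 FPKM in vehicle replicate 2 and between 1.35 and 2.99 FPKM elsewhere, but it came almost wholly from S100a8 (0, 24.7, 1.09 and 0.928 FPKM, vehicle libraries first) and S100a9 (0.209, 6.81, 1.45 and 1.65 FPKM). In vehicle replicate 2 the markers Mpo, Retnlg, Mmp8 and Cxcr2 were at 0 and the median of the 7 was 0. Those named were at 0.145 FPKM or less in every library, too low to show whether they moved with S100a8 and S100a9. Elane was highest in vehicle replicate 1, at 1.00 FPKM. The 7 measured stellate cell markers were close to even, from 158.1 to 182.3 FPKM. In bulk RNA, fewer cells of a type and less RNA per cell cannot be told apart.

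**Figure D1:**
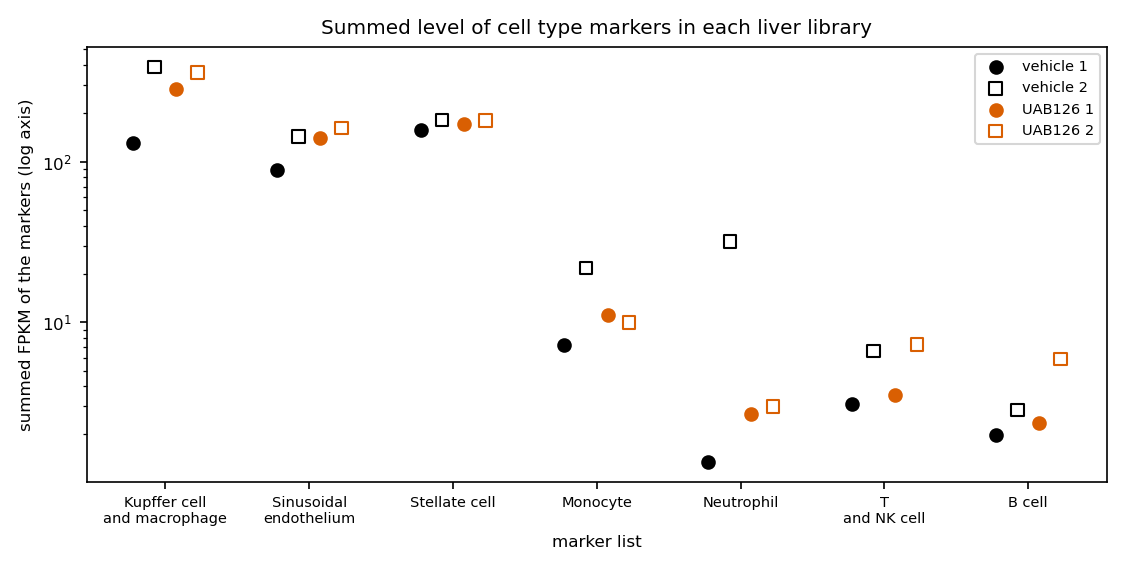
Summed FPKM (log axis) of 7 lists of cell type markers in each of the 4 liver libraries (black, vehicle; orange, UAB126; filled circles, replicate 1; open squares, replicate 2). Vehicle replicate 1 is the lowest library for the Kupffer cell list, at 130.7 FPKM against 281.7 to 389.9 FPKM, and vehicle replicate 2 stands apart for the neutrophil list at 31.8 FPKM, nearly all of it from S100a8 and S100a9.

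The comparison asked whether UAB126 in the high fat diet changed the RNA of inflammatory signalling genes in the liver. The largest differences among the tested genes went in opposite directions: the receptor gene Il1r1, the chemokine genes Ccl5 and Ccl2 and the adhesion gene Vcam1 were higher with UAB126, and the chemokine gene Cxcl1 and the cytokine gene Il1b were lower. None of the 26 tested genes passed the threshold (limma, Benjamini-Hochberg adjusted p under 0.05 over all 10786 symbols), where 0.139% of all symbols did, and the lowest adjusted p among them was 0.257. With 2 libraries a group, an exact permutation test of a single gene cannot give a two-sided p below 0.333. At an unadjusted p under 0.05 there were 5 of the 26, 4 higher and 1 lower. That is 19.2% of them, against 13.4% of all symbols (5.03% higher and 8.38% lower).

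Both UAB126 libraries were above both vehicle libraries in 8 of the 26 genes (30.8%, against 22.7% of all symbols) and below both in 5 (19.2%, against 26.9%). The groups thus did not overlap in 50% of the tested genes and in 49.6% of all symbols, so this count is near the background. Over the 34 genes above 0, which include those under the filter, 10 were higher without overlap, 7 were lower and 17 overlapped; among the 16543 symbols above 0 the shares were 22.1% and 21.4%. The median log2 difference of the 26 genes was 0.16, against -0.03 for all symbols, on the log2(FPKM + 1) scale, which understates the change of low genes. Without vehicle replicate 1 this median was 0.05 and without UAB126 replicate 2 it was 0.03, while without vehicle replicate 2 it was 0.41 and without UAB126 replicate 1 it was 0.28. Vehicle replicate 1 was the lowest library in 13 of the 26 genes, or 50%, against 18.8% of all symbols. Vehicle replicate 2 exceeded it in 19 of the 26, or 73.1%, against 53.4% of all symbols. Kupffer cell markers were lowest in vehicle replicate 1 too, and their part in these values was not tested. In the fits without 1 library a group is left with 1 library, which is then assumed to vary like the 2 of the other group. There, 2 of the 26 genes passed without vehicle replicate 1 (4.1% of all symbols), 0 without vehicle replicate 2 (0.519%), 0 without UAB126 replicate 1 (0.13%) and 0 without UAB126 replicate 2 (0%). With the replicate number as a block, 0 of the 26 passed (1.37% of all symbols) and 9 had an unadjusted p under 0.05 (23.4%).

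**Figure D2:**
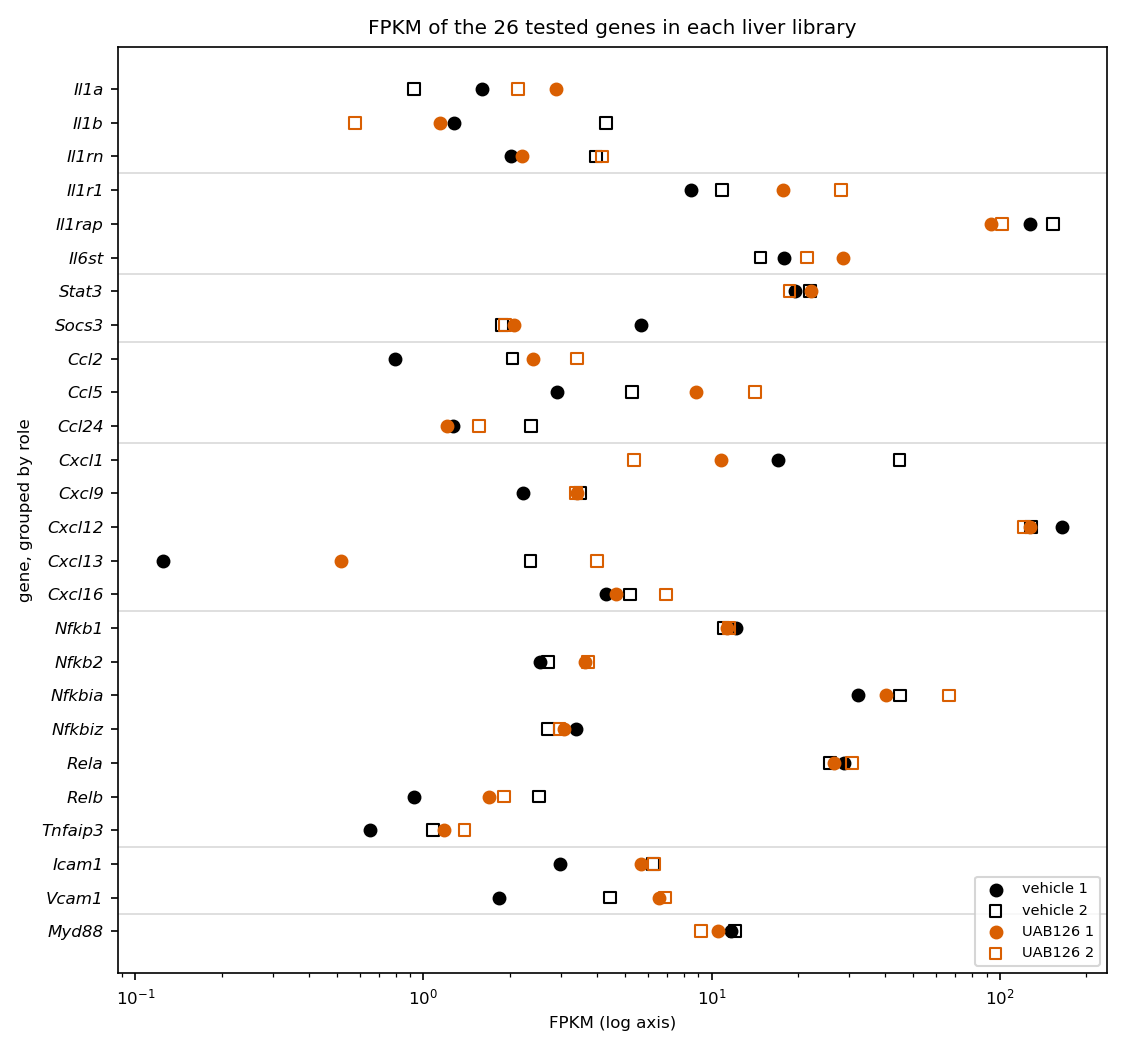
FPKM (log axis) of the 26 tested genes in each liver library, grouped by role with grey lines between the groups (black, vehicle; orange, UAB126; filled circles, replicate 1; open squares, replicate 2). Nfkb1, Rela and Stat3 are tightly grouped, the orange points lie to the right of the black ones for Il1r1 and Ccl5, and the points of Cxcl13 are spread from 0.125 to 3.996 FPKM.

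Among the tested cytokine genes, Il1a and Il1b had the largest differences, in opposite directions, and neither passed with all libraries. Il1a, which encodes the form of IL-1 that is active without cleavage and often stays with the cell, measured 1.59 and 0.927 FPKM in the vehicle libraries and 2.88 and 2.13 FPKM in the UAB126 libraries. Both UAB126 libraries were higher, by a log2 difference of 0.64 ± 0.26 (limma's moderated SE, used for every ± below; limma adjusted p = 0.375). Il1b, the secreted form that is cut by caspase-1, measured 1.28 and 4.29 FPKM in the vehicle libraries and 1.14 and 0.577 FPKM in the UAB126 libraries. The lower vehicle library was close to the higher UAB126 library, and vehicle replicate 2 stood far above the rest. Its log2 difference was -0.92 ± 0.45 (limma adjusted p = 0.423). Against that high library alone, with the spread taken from the UAB126 libraries, it was -1.52 and passed (limma adjusted p = 0.0334), and without vehicle replicate 2 it was -0.31 (limma adjusted p = 0.806). Those 2 genes lie side by side on chromosome 2 of mm10, Il1a at 129299610 to 129309972 and Il1b at 129364570 to 129371139.

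Il1rn, the gene of the IL-1 receptor antagonist, measured 2.01 and 3.97 FPKM in the vehicle libraries and 2.2 and 4.17 FPKM in the UAB126 libraries. The groups overlapped, and the gap within each group was larger than the gap between them. Tnf was under the filter, at 0.170 and 0.290 FPKM in the vehicle libraries and 0.147 and 0.208 FPKM in the UAB126 libraries. Scaled by relative depth, its 4 values stand as 4 to 4 to 5 to 5, the smallest whole numbers they fit within 0.04, which are its fragments or a fraction of them. The groups overlapped. Il6 was listed at 0 in all libraries, where Alb had a value in vehicle replicate 2. Because a listed 0 here need not mean a low level, the level of Il6 cannot be given.

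The smallest p of the 26 genes was that of an IL-1 receptor gene. Il1r1, which encodes the signalling receptor for both forms of IL-1 (chromosome 1, 40225080 to 40317257), measured 8.49 and 10.9 FPKM in the vehicle libraries and 17.7 and 28.1 FPKM in the UAB126 libraries. Both UAB126 libraries exceeded both vehicle libraries, a ratio of means of 2.36 and a log2 difference of 1.13 ± 0.28 (limma adjusted p = 0.257, unadjusted p = 0.00808). That difference lay between 0.82 and 1.45 in the 12 alternative analyses. Its sign says little here, since most of these could not change the sign of a gene whose groups do not overlap. Il1rap, whose protein pairs with that receptor to pass the signal on, went the other way. In sum over its 2 rows it measured 127.4 and 152.9 FPKM in the vehicle libraries and 93.4 and 102.1 FPKM in the UAB126 libraries, a log2 difference of -0.51 ± 0.22 (limma adjusted p = 0.392). Each row by itself was lower in both UAB126 libraries: 81.0 and 100.2 against 64.7 and 69.5 FPKM in one, and 46.4 and 52.7 against 28.7 and 32.6 FPKM in the other. Both rows give the same locus, so they may not be independent, and which transcripts each counts was not tested. With quantile normalization the difference of Il1rap was -0.21.

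On the IL-6 side, Il6st, the gene of the shared signalling chain gp130 (chromosome 13, 112464070 to 112510086), measured 17.9 and 14.8 FPKM in the vehicle libraries and 28.7 and 21.4 FPKM in the UAB126 libraries. The groups did not overlap, and the log2 difference was 0.58 ± 0.23 (limma adjusted p = 0.370). The ligand-binding receptor gene Il6ra shares its row with Ubap2l, a gene of another function, so its own level cannot be given. That joint row measured 10.1 and 10.8 FPKM in the vehicle libraries and 22.9 and 30.1 FPKM in the UAB126 libraries, a log2 difference of 1.25 ± 0.21 (limma adjusted p = 0.152). Stat3, the transcription factor of this pathway, was at 19.5 and 21.9 against 22.2 and 18.6 FPKM. The groups overlapped, and the 95% interval of its log2 difference ran from -0.51 to 0.47. Socs3, a STAT3 target that shuts the receptor off, measured 5.67 and 1.87 FPKM in the vehicle libraries and 2.06 and 1.92 FPKM in the UAB126 libraries. Here 1 library, vehicle replicate 1, was high and the other 3 were alike. Its log2 difference of -0.55 ± 0.42 became 0.06 without that library and -1.16 without vehicle replicate 2.

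Hepatocyte genes that IL-6 and IL-1 are known to induce were lower in most cases. Of 21 listed, 17 were tested, all but Orm1, Orm2, Hp and Hpx, of which these counts say nothing. Of the 17, 13 were lower in both UAB126 libraries (26.9% of all symbols were), 1 was higher (22.7%) and 3 overlapped. The median log2 difference was -1.12, and 2 passed (limma, adjusted p), Saa1 and Saa2 (0.139% of all symbols passed). The general hepatocyte markers, of which Fgb is in both lists, mostly lay the same way: 6 of 10 were lower without overlap, 2 were higher and 2 overlapped, with a median log2 difference of -0.77 and 0 past the threshold (limma, adjusted p; 4 had an unadjusted p under 0.05). Alb, 1 of the 2 that overlapped, enters these counts and the median. Its listed 0 in all but vehicle replicate 2 need not mean a low level. The part of the hepatocyte marker values in those of the induced genes was not tested. This list holds acute phase genes already known to be low in these libraries, so its count is no independent evidence, and Il1rn is also one of the 38. Besides the serum amyloid genes, Lrg1, which encodes a secreted glycoprotein, measured 935.5 and 1152 FPKM in the vehicle libraries and 285.0 and 326.8 FPKM in the UAB126 libraries (log2 difference -1.76 ± 0.26, limma adjusted p = 0.125). Steap4, a metalloreductase gene, was at 73.3 and 74.3 against 32.6 and 31.7 FPKM. Crp (C-reactive protein) was the gene higher in both UAB126 libraries, at 219.6 and 234.0 against 276.6 and 302.6 FPKM.

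Among the CC chemokines, which draw monocytes, T cells and eosinophils, 4 of the 6 with a row of their own had a higher mean with UAB126. Ccl5, a T cell attractant (chromosome 11, 83525778 to 83530518), measured 2.91 and 5.30 FPKM in the vehicle libraries and 8.81 and 14.1 FPKM in the UAB126 libraries. The groups did not overlap. The ratio of means was 2.80 and the log2 difference 1.30 ± 0.33 (limma adjusted p = 0.269, unadjusted p = 0.00954). Ccl5 was the only one of the 26 to pass once the dependence on transcript length was taken out, with a log2 difference of 1.87 ± 0.15 (limma adjusted p = 0.03996, where 0.225% of all symbols passed). Ccl2, the main attractant of monocytes, measured 0.794 and 2.04 FPKM in the vehicle libraries and 2.40 and 3.42 FPKM in the UAB126 libraries. The higher vehicle library came close to the lower UAB126 library, and the log2 difference was 0.73 ± 0.32 (limma adjusted p = 0.399). It was 0.35 without vehicle replicate 1. Scaled by depth, its values stand as 8 to 12 to 35 to 35.

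Ccl3 and Ccl4, neighbouring genes of macrophage inflammatory proteins, were under the filter. Ccl3 measured 0.102 and 0.523 FPKM in the vehicle libraries and 0.635 and 1.30 FPKM in the UAB126 libraries, which stand as 1 to 3 to 9 to 13 fragments or multiples of these. Ccl4 was at 0.262 FPKM and listed at 0 in the vehicle libraries and was 1.09 and 2.57 FPKM in the UAB126 libraries, which stand as 1 to 0 to 6 to 10. Both were higher in both UAB126 libraries, on small numbers, and for Ccl4 with the listed 0 taken as it stands. Ccl7, a further monocyte attractant next to Ccl2, was at 0.402 and 1.20 against 0.764 and 0.0988 FPKM and overlapped.

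Ccl24, an eosinophil attractant, was at 1.27 and 2.36 against 1.21 and 1.56 FPKM, with overlap, and its sign changed when the length trend was removed. The joint row of Ccl6 and Ccl9, both made by macrophages, measured 26.7 and 57.7 FPKM in the vehicle libraries and 56.0 and 72.8 FPKM in the UAB126 libraries. It overlapped between the groups and had a log2 difference of 0.69 ± 0.40 (limma adjusted p = 0.467). In that row and in Ccl2, Ccl3 and Ccl5 the lowest library was vehicle replicate 1, as for the Kupffer cell markers.

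The CXC chemokines divided. Cxcl1, a neutrophil attractant made by hepatocytes and other cells under IL-1 or TNF (chromosome 5, 90891241 to 90893115), measured 16.9 and 44.9 FPKM in the vehicle libraries and 10.8 and 5.37 FPKM in the UAB126 libraries. Both UAB126 libraries were lower than both vehicle libraries, but the vehicle libraries differed from each other by 2.65 times. Cxcl1 had the largest difference of the 26 genes in the fit of all libraries, -1.73 ± 0.52 on the log2 scale, with a vehicle mean 3.83 times the UAB126 mean (limma adjusted p = 0.301, unadjusted p = 0.0193). Without vehicle replicate 1, which leaves the higher vehicle library alone and the UAB126 libraries to give the spread, it was -2.41 and passed (limma adjusted p = 0.0227, where 4.1% of all symbols passed). Without vehicle replicate 2 it was -1.05 (limma adjusted p = 0.406).

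Cxcl2, its neighbour with the same kB letters and the same receptor, was under the filter at 0.545 and 0.699 FPKM in the vehicle libraries and 0.0942 and 0.201 FPKM in the UAB126 libraries. These stand as 8 to 6 to 2 to 3 fragments or multiples, again with both UAB126 libraries lower. In Cxcl1, Cxcl2, Il1b and Ccl7, picked after their values were seen, the highest library was vehicle replicate 2. It was the highest in 7 of the 26 tested genes, a share not counted over all symbols. S100a8 and S100a9 were highest there too. Of the other measured neutrophil markers, Elane was highest in vehicle replicate 1 and the rest were at 0.145 FPKM or less in every library. The monocyte markers also had their highest sum in vehicle replicate 2, 21.8 FPKM against 7.19 to 11.1 FPKM elsewhere, mostly from Plac8. Of that list, Ccr2 and Itgam were highest in UAB126 libraries. The sum of the Kupffer cell markers was highest in vehicle replicate 2 too, at 389.9 FPKM against 358.9 FPKM in UAB126 replicate 2. The part of any of these markers in the values of the 4 chemokine and cytokine genes was not tested.

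In the remaining CXC genes the log2 difference was no larger than its SE. Cxcl12, which holds cells that carry its receptor CXCR4 in place, was the most abundant of the chemokines in FPKM, a level per transcript length. It measured 164.6 and 128.4 FPKM in the vehicle libraries and 127.2 and 121.1 FPKM in the UAB126 libraries, with groups that just failed to overlap and a log2 difference of -0.23 ± 0.23, whose sign changed with quantile normalization. Cxcl9, an interferon-induced T cell attractant, was at 2.22 and 3.50 against 3.41 and 3.39 FPKM, and Cxcl16, the ligand of CXCR6, at 4.30 and 5.21 against 4.67 and 6.95 FPKM. Cxcl13, a B cell attractant, differed by 18.8 times between the vehicle libraries (0.125 and 2.35 FPKM) and by 7.71 times between the UAB126 libraries (0.519 and 3.996 FPKM). It was high in replicate 2 of each group and low in replicate 1, and its sign changed without vehicle replicate 1 and without UAB126 replicate 2.

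Of the NF-kB subunits, 2 were nearly level. Nfkb1, the gene of p105 and p50, measured 12.2 and 10.997 FPKM in the vehicle libraries and 11.3 and 11.5 FPKM in the UAB126 libraries, and Rela, the gene of the activating subunit p65, was at 28.7 and 25.8 against 26.6 and 30.6 FPKM. Both overlapped, with 95% intervals of the log2 difference from -0.45 to 0.41 for Nfkb1 and from -0.42 to 0.55 for Rela. Nfkb2, which encodes p100 and p52 of the alternative pathway (chromosome 19, 46304320 to 46312385), measured 2.55 and 2.71 FPKM in the vehicle libraries and 3.64 and 3.71 FPKM in the UAB126 libraries. Libraries of a group were close to each other and the groups did not overlap, with a log2 difference of 0.37 ± 0.18 (limma adjusted p = 0.426) that stayed between 0.32 and 0.47 in the 11 alternatives where it was tested. Relb, the partner of p52, was at 0.924 and 2.52 against 1.69 and 1.91 FPKM, with vehicle replicates as the lowest and the highest library.

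The inhibitors, which NF-kB itself induces, did not pass either. Nfkbia measured 32.2 and 45.2 FPKM in the vehicle libraries and 40.3 and 66.7 FPKM in the UAB126 libraries, where UAB126 replicate 1 fell between the vehicle libraries (log2 difference 0.43 ± 0.32, limma adjusted p = 0.543). It was 0.08 without UAB126 replicate 2, 0.20 without vehicle replicate 1 and 0.79 without UAB126 replicate 1. Tnfaip3, the gene of the ubiquitin-editing enzyme A20, was at 0.651 and 1.08 against 1.18 and 1.39 FPKM, without overlap (log2 difference 0.30 ± 0.25). Nfkbiz, the nuclear inhibitor IkB-zeta, was at 3.38 and 2.71 against 3.06 and 2.97 FPKM. Its values with UAB126 lay between those of vehicle.

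The adhesion molecules, which endothelium shows to passing leukocytes, were lowest in vehicle replicate 1. Vcam1 (chromosome 3, 116109949 to 116129688) measured 1.82 and 4.43 FPKM in the vehicle libraries and 6.54 and 6.87 FPKM in the UAB126 libraries. The UAB126 libraries were alike and above both vehicle libraries, with a log2 difference of 0.98 ± 0.34 (limma adjusted p = 0.3296, unadjusted p = 0.0310). It was 0.50 without vehicle replicate 1 and 1.45 without vehicle replicate 2. Icam1 measured 2.99 and 6.26 FPKM in the vehicle libraries and 5.68 and 6.33 FPKM in the UAB126 libraries. Vehicle replicate 2 was level with the UAB126 libraries, and without vehicle replicate 1 its log2 difference went from 0.38 ± 0.32 to -0.05. The markers of sinusoidal endothelium were lowest in that library too, and their part here was not tested.

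None of the sensors Tlr2, Tlr4 and Nlrp3 reached the filter, but Myd88, the adaptor shared by the IL-1 receptor and most Toll-like receptors, did. It measured 11.6 and 12.0 FPKM in the vehicle libraries and 10.5 and 9.19 FPKM in the UAB126 libraries, lower without overlap, with a log2 difference of -0.25 ± 0.17 (limma adjusted p = 0.531). Tlr4, the endotoxin receptor gene, was at 0.450 and 0.789 against 0.369 and 0.379 FPKM, also lower in both. Tlr2, a receptor for bacterial lipoproteins, was at 0.310 and 1.26 against 0.988 and 1.34 FPKM and lay just under the filter with a mean of 0.975 FPKM, while Ccl4 had a mean of 0.981 and Tnfaip3, just above it, 1.07 FPKM. Nlrp3, an inflammasome sensor, was at 0.157 and 0.269 against 0.207 and 0.217 FPKM.

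**Figure D3:**
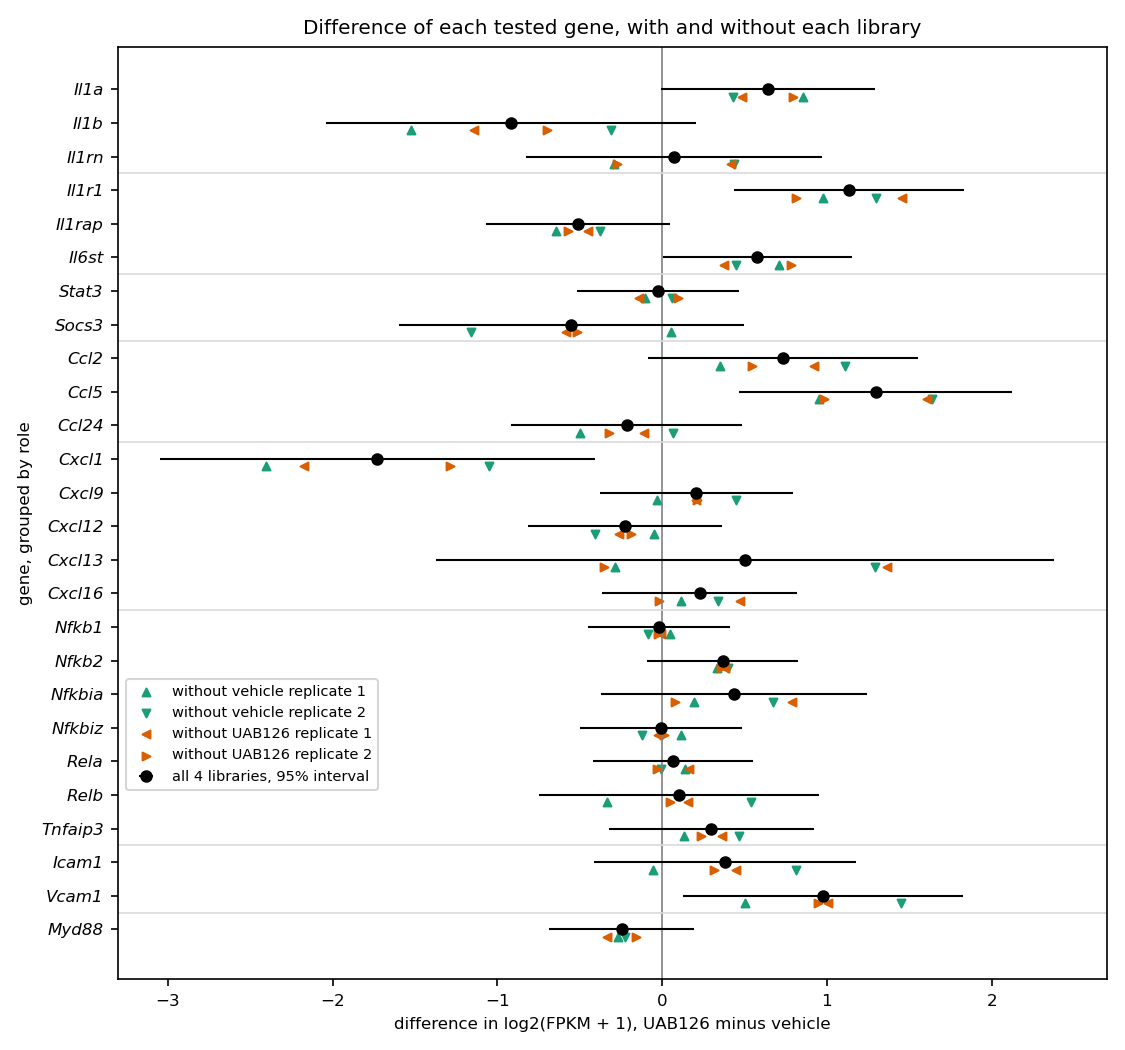
Difference in log2(FPKM + 1), UAB126 minus vehicle, of the 26 tested genes grouped by role. Black points are the fit of all 4 libraries with its 95% interval, and triangles the same difference without 1 library (green, vehicle; orange, UAB126). The intervals of Il1r1, Ccl5, Vcam1, Il6st and Cxcl1 leave out 0, before any adjustment for the 10786 symbols tested, and the triangles of Cxcl1 run from -2.41 to -1.05.

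Transcript length moved with the libraries, and several chemokine transcripts are short. In the tenth of the tested symbols with the shortest transcripts the median log2 difference was -0.42, and in the tenth with the longest it was 0.14. Ccl5, with a longest transcript of 668 bases, and Ccl2, with 1096 bases, lay above 0 at lengths where most symbols lay below. With the length trend removed Ccl2 had a log2 difference of 1.12 against 0.73 before, and 9 of the 26 genes had an unadjusted p under 0.05 (15.5% of all symbols did). Cxcl1, with 1871 bases, was at -1.57 against -1.73, and Il1b, with 1356 bases, at -0.62 against -0.92.

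**Figure D4:**
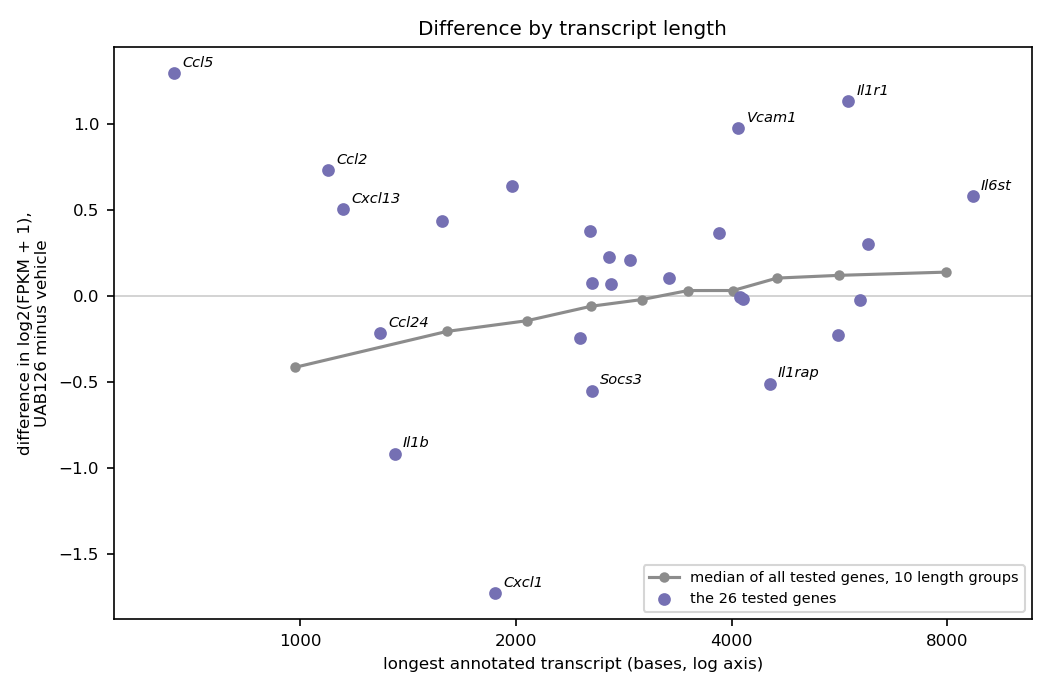
Difference in log2(FPKM + 1), UAB126 minus vehicle, against the length of the longest annotated transcript (log axis, bases). Grey points joined by a line are medians of all tested symbols in 10 groups by length, from -0.42 to 0.14, and purple points are the 26 tested genes, of which Ccl5 lies highest at 1.30 and Cxcl1 lowest at -1.73.

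A further 72 genes of the same pathways (receptors, adaptors, kinases, NF-kB inhibitors, JAKs and chemokine receptors) were described for context. Of the 50 that were tested, 0 passed (limma, adjusted p) and 7 (14%) were under 0.05 before adjustment, close to the 13.4% of all symbols. They were higher without overlap in 18 (36%, against 22.7% of all symbols) and lower in 13 (26%, against 26.9%), with a median log2 difference of 0.04. Of the 7, those lower with UAB126 were Cxcr5, Socs2, Il18 and Lifr, and those higher were Ticam1, Jak1 and Cxcr4. Socs2, a growth hormone and STAT5 feedback gene, measured 5.44 and 6.91 FPKM in the vehicle libraries and 1.58 and 1.83 FPKM in the UAB126 libraries (log2 difference -1.40 ± 0.20, limma adjusted p = 0.125), unlike its relative Socs3 in that each library of one group was below each of the other. Il18, a cytokine of the IL-1 family, was at 20.97 and 30.5 against 9.49 and 15.3 FPKM. Jak1, the kinase bound to gp130, was at 18.6 and 18.5 against 29.3 and 25.4 FPKM, and Lifr, which pairs with gp130 for another cytokine, at 60.5 and 74.5 against 49.5 and 40.01 FPKM. Ticam1, the adaptor of the other branch of Toll-like receptor signalling, was at 7.45 and 5.35 against 10.4 and 11.03 FPKM. Cxcr4, the receptor for Cxcl12, was at 0.633 and 0.573 against 1.26 and 1.98 FPKM.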

How the data were processed

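The authors deposited 1 table of FPKM values with a column per library, from libraries of polyadenylated RNA. Cuffdiff, Cufflinks 2.2.1, STAR 2.5.1b and Trim Galore 0.4.1 on build mm10 are named in the submitters' processing notes. The annotation, settings and strand handling were not stated there, so overlapping genes cannot be told apart. Of 27216 rows, 3634 had no symbol and were left out. Rows with one symbol were summed. Those reaching a mean of 1 FPKM were fitted as log2(FPKM + 1) with limma 3.58.1 in R 4.3.3 (intensity trend, group as the only term, 5.35 total degrees of freedom), two-sided, with Benjamini-Hochberg adjustment over all 10786 and a threshold of 0.05. The fit was tested on simulated data in which every gene had the same spread, so that test does not show how it performs on these libraries. FPKM hold no counts, so no count test was run and the absolute depth is unknown. Positions and lengths came from GENCODE M21 (GRCm38, the same assembly as mm10). The genes named were all 38 listed genes, plus pathway genes with an unadjusted p under 0.05. The hepatocyte target genes described with a result (Saa1, Saa2, Lrg1, Steap4, Crp) were chosen after their values were seen. The genes, lists and tests were chosen with earlier results of these data known. Alternatives changed the pseudocount (0.1), the filter (none, or 5 FPKM), the prior, the scaling, the length trend, the replicate block and the libraries used.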

Additional observations from a re-analysis of the deposited data

How the results depend on the processing

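Of the 26 tested genes, 13 kept the sign of their difference in all alternatives in which they were tested, and 13 changed it in at least 1. None of the 13 that changed sign passed the threshold in any. Where groups do not overlap, leaving out a library, the block, or another pseudocount, filter or prior cannot change the sign. The count of kept signs therefore largely repeats the genes without overlap, 50% of the 26 against 49.6% of all symbols. The number of the 26 past the threshold was 0 in the main analysis, 1 (Ccl5) with the length trend removed, and 0 to 2 without 1 library, where the 2 were Cxcl1 and Il1b without vehicle replicate 1; it was 0 in the other alternatives. The 5 with an unadjusted p under 0.05 became 9 with the length trend removed, 9 with the replicate block and 1 to 7 without 1 library. The 8 genes higher without overlap became 3 of 13 at a mean of at least 5 FPKM. Without 1 library the 8 became 9 to 15 and the 5 lower ones 6 to 8, since fewer libraries overlap less often. Shares over all symbols were not counted for overlap in these settings, so these counts cannot be set against a background. The same holds for the counts at an unadjusted p under 0.05 without 1 library. The median difference ran from 0.03 to 0.41 without 1 library. Of the 50 pathway genes, 1 (Cxcr5) passed with the replicate block and 0 to 2 without 1 library (Cxcr5 and Socs2 without vehicle replicate 1). The replicate numbers come from the titles, and nothing says that they pair libraries; deviations of vehicle 1 and UAB126 1 from their group means had a correlation of 0.178 over symbols. With the block 0 of the 26 passed. Vehicle replicate 2, at an estimated relative depth of 0.404, was the shallowest library by the best fitting set of depths but not by the next best.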

Other observations

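Cxcr5, the gene of the receptor for Cxcl13 and a marker of B cells and follicular T cells, had a level at odds with the B cell markers. Its summed value was 49.3 and 42.2 FPKM in the vehicle libraries and 11.5 and 13.9 FPKM in the UAB126 libraries (log2 difference -1.77 ± 0.20, limma adjusted p = 0.0745). The 4 B cell markers together summed to between 1.99 and 5.91 FPKM, and their sum was not highest in vehicle. The Cxcr5 value came almost wholly from 1 of its 2 rows in the table: the other row held 0.0746 and 0.0851 FPKM in the vehicle libraries and 0.138 and 0.343 FPKM in the UAB126 libraries, and so was higher with UAB126 where the first was lower. In the annotation Cxcr5 overlaps the end of a gene on the opposite strand, and which transcripts the first row counts was not tested.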
